A study of Homo sapiens with 6 samples.

Results

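The 10 genes described here are the transcription factors that drive the epithelial-mesenchymal transition (EMT), namely SNAI1, SNAI2, ZEB1, ZEB2, TWIST1 and TWIST2, the epithelial splicing regulators ESRP1 and ESRP2, the epithelial transcription factor GRHL2, and VIM, the intermediate filament gene read as the mesenchymal output. They were taken by symbol, and all 10 were found among the 20802 genes counted. MCF10A is an established line of benign human breast epithelium. Transcripts were measured by Ion AmpliSeq sequencing, which amplifies 1 short stretch per gene from cDNA and counts the reads of that amplicon. The study labelled 6 libraries as 2 replicates each of the parental line (wt), of the line carrying the eGFP control plasmid (eGFP) and of the line overexpressing human GIRK1, the potassium channel subunit encoded by KCNJ3 (GIRK1). The comparisons asked whether the EMT regulators differed in the GIRK1 line.

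All 6 libraries came from cultures harvested before confluence, and the labels name no treatment, time course or dose. Both engineered lines were stably transfected, selected with G418 and sorted on eGFP fluorescence, and GIRK1 was expressed from a plasmid that also encodes eGFP, so eGFP was shared by the GIRK1 and eGFP groups and absent from the parental line. Each construct is represented by 1 sorted line in the methods, whereas the design text names 2 lines with GIRK1 and 2 controls, so a difference between lines and a difference between constructs cannot be told apart. Neither the labels nor the methods state that replicates came from separate cultures, and p-values measure only the spread between these libraries.

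Epithelial cells in EMT lose junctions and gain motility. SNAI, ZEB and TWIST factors bind E-box motifs in DNA, and the SNAI and ZEB factors are best known as repressors of epithelial genes such as CDH1. GRHL2 and ZEB1 repress each other in many epithelia, and ESRP1 and ESRP2 keep epithelial isoforms of FGFR2, CD44 and other transcripts. In the breast, SNAI2 is known as a factor of basal and progenitor cells, and VIM is expressed by basal-type lines such as MCF10A.

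The libraries held from 2506120 (wt replicate 1) to 16040556 reads (wt replicate 2). A limit of 3 reads, set here for a count of 0, thus stood for between 0.187 and 1.20 RPM (reads scaled to each library's total). The upper end of the 95% exact Poisson interval for 0 reads was somewhat higher, from 0.230 RPM (wt replicate 2) to 1.47 RPM (wt replicate 1). These limits and the 95% exact Poisson intervals on single values cover counting error only. KCNJ3 had 2408 and 3677 reads in the GIRK1 libraries and 0 reads in wt replicate 2 and in both eGFP libraries, but 48 reads in wt replicate 1. Basal mammary markers fixed as a list of 10 genes summed to between 15315 and 35347 RPM in 5 libraries, with 9 of 10 detected and TP63 at 0, whereas they summed to 389 RPM in wt replicate 1, where KRT6A, KRT14, KRT17, TP63 and S100A2 were at 0. Luminal markers summed to 18911 RPM in wt replicate 1, with 10 of 10 detected, and to between 531 and 1029 RPM in the other 5, where ESR1, PGR, KRT19 and TFF1 were at 0. Basal markers other than TP63 were thus present in 5 libraries, called MCF10A-like here, and largely absent from wt replicate 1, whose label these markers do not bear out. GIRK1 was compared with eGFP, and then with eGFP and wt replicate 2 together, whereas the library labelled wt replicate 1 is set beside wt replicate 2 with no test. The 8 fibroblast markers summed to between 17.2 and 48.1 RPM in every library. Among them, DCN (decorin) was at 27.0 and 25.2 RPM in GIRK1, 0.780 and 3.71 RPM in eGFP and 10.2 RPM in wt replicate 2. FAP did not follow it, at 9.36 and 14.6 RPM in GIRK1, 35.1 and 8.89 RPM in eGFP and 10.7 RPM in wt replicate 2. COL1A1 overlapped between GIRK1 (4.59 and 8.02 RPM) and eGFP (9.17 and 4.49 RPM), and COL1A2 and THY1 were at 0 in every library.

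Promoter windows of 3 genes are shown, 1 member and 2 junction or polarity genes with contrasts described below. VIM was near the floor in wt replicate 1, RAB25 passed the test in the GIRK1 line, and CLDN4 was read strongly in wt replicate 1 alone. The windows run from 250 bases before to 50 bases after the annotated start, on the plus strand of GRCh38.p14 as given by RefSeq. They lie at chr10:17227991-17228290 (VIM), chr1:156060910-156061209 (RAB25) and chr7:73830746-73831045 (CLDN4). Capitals mark the E-box CACCTG, or CAGGTG on the other strand, the form best known for SNAI and ZEB factors.
VIM: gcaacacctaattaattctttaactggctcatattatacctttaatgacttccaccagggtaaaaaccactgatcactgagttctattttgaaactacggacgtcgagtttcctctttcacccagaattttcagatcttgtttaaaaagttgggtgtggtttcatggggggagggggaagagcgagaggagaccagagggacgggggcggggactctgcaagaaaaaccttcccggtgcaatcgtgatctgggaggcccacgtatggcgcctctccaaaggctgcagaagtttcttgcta
RAB25: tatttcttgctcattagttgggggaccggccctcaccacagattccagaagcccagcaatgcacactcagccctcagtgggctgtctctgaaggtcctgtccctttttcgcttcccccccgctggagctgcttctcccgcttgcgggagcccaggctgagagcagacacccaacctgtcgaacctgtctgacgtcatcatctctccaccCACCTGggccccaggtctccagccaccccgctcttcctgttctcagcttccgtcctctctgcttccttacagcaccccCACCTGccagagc
CLDN4: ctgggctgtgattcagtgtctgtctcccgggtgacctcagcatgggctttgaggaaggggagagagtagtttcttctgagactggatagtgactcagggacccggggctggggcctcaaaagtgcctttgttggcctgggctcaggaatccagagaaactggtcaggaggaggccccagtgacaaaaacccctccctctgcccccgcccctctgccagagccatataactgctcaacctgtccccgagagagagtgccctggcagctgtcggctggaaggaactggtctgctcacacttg
The RAB25 window held the motif at 2 places, where 3.49% of 35116 windows held it at 2 or more, and the VIM and CLDN4 windows held none. Over all windows, 20.6% held at least 1. Among the members, windows were found for VIM, ZEB1, ZEB2 and TWIST2, while SNAI1, SNAI2, TWIST1, ESRP1, ESRP2 and GRHL2 had no entry. Of the 7 ZEB1 windows, 1 held the motif at 3 places, 1 held it once and 5 held none, and the ZEB2 and TWIST2 windows held none. Of the junction and polarity genes listed below, 6 of the 10 with a window held the motif (PATJ, RAB25, OCLN, DSP, CLDN3 and CRB3), against 3 of 15 for the mesenchymal genes, 3 of 9 for the other epithelial factors, 1 of 7 for the splicing regulators, 0 of 8 for the genes with ESRP-regulated exons and 0 of 13 for the other EMT-associated factors. These counts describe letters in a window and say nothing of binding.

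The SNAI factors came first in the comparison of GIRK1 with eGFP. SNAI2, the zinc-finger repressor also called Slug, gave 523 and 428 reads in the GIRK1 libraries (47.1 and 41.4 RPM), against 844 and 883 reads in the eGFP libraries (165 and 86.3 RPM) and 991 reads in wt replicate 2 (61.8 RPM). Both GIRK1 libraries lay below all 3 controls, but the eGFP libraries differed from each other by 1.91-fold and wt replicate 2 stood closer to the GIRK1 libraries than either eGFP library did. The mean was 44.2 ± 4.04 RPM in GIRK1 and 125 ± 55.4 RPM in eGFP (SD, n = 2 each). The library with the highest SNAI2 level, eGFP replicate 1, also had the highest sum of basal markers (35347 RPM). The largest parts of that sum were S100A2 (18503.5 RPM) and KRT5 (10660 RPM). KRT17 (853 RPM) and CDH3 (207 RPM) were instead lowest in eGFP replicate 1 among the MCF10A-like libraries. The part of basal markers in the SNAI2 difference was not tested. In such bulk samples, fewer cells expressing a gene and less of its RNA per cell cannot be told apart. On the log2 scale the difference was -1.56 (standard error 0.35, 95% interval -2.41 to -0.71), and edgeR's quasi-likelihood test gave an adjusted p of 0.0931 (Benjamini-Hochberg, over 11279 genes). SNAI2 thus missed the threshold of 0.05 in this test, while it passed in the DESeq2 Wald test (adjusted p = 0.00159). With 1 library left out, edgeR's fit has a lone library in 1 group, which is assumed to vary like the pair of the other group. On that footing SNAI2 passed without eGFP replicate 1 (-0.95, adjusted p = 0.0143) or eGFP replicate 2 (-2.00, adjusted p = 4.56e-05), with the spread of the GIRK1 pair, and did not pass without GIRK1 replicate 1 (-1.64, adjusted p = 0.248) or GIRK1 replicate 2 (-1.49, adjusted p = 0.347), with that of the eGFP pair.

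With wt replicate 2 added to the controls, the SNAI2 difference was -1.28 (95% interval -2.30 to -0.25, edgeR adjusted p = 0.196). This second comparison shares its 4 GIRK1 and eGFP libraries with the first and is no independent repeat. Among the fits that left out 1 library, the SNAI2 difference was smallest without eGFP replicate 1, at -0.72 on the log2 scale, and edgeR's adjusted p was then 0.0437.

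SNAI1, the related repressor Snail, was close to the limit of detection. It had 1 and 2 reads in the GIRK1 libraries (0.0900 and 0.193 RPM), 2 and 7 reads in the eGFP libraries (0.390 and 0.684 RPM) and 4 reads in wt replicate 2 (0.249 RPM). The 95% intervals of the GIRK1 values, 0.00228 to 0.502 RPM and 0.0234 to 0.698 RPM, overlapped those of every control. SNAI1 did not pass the filter on low counts, and no difference was detectable at this depth.

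The ZEB factors were also read at few counts. ZEB1, a zinc-finger and homeodomain repressor, had 16 and 11 reads in GIRK1 (1.44 and 1.06 RPM), 7 and 7 reads in eGFP (1.37 and 0.684 RPM) and 24 reads in wt replicate 2 (1.50 RPM). The groups overlapped, and the log2 difference from eGFP was 0.34 (95% interval -1.16 to 1.84, edgeR adjusted p = 0.796). Its paralog ZEB2 had 14 and 15 reads in GIRK1 (1.26 and 1.45 RPM), 2 and 7 reads in eGFP (0.390 and 0.684 RPM) and 15 reads in wt replicate 2 (0.935 RPM). Both GIRK1 values lay above the 3 controls, yet the log2 difference of 1.21 had a 95% interval from -0.25 to 2.66 and an edgeR adjusted p of 0.328. With the 3 controls together, the ZEB2 value was 0.89 (edgeR adjusted p = 0.386) and the ZEB1 value 0.07 (edgeR adjusted p = 0.962).

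The basic helix-loop-helix factor TWIST1 varied by 1.49-fold between the highest and the lowest of the MCF10A-like libraries. It had 185 and 169 reads in GIRK1 (16.7 and 16.3 RPM), 81 and 241 reads in eGFP (15.8 and 23.5 RPM) and 278 reads in wt replicate 2 (17.3 RPM). The GIRK1 values lay inside the range of the controls, with a log2 difference from eGFP of -0.29 (95% interval -0.93 to 0.34, edgeR adjusted p = 0.580) and from the 3 controls of -0.22 (95% interval -0.75 to 0.32, edgeR adjusted p = 0.648). Its relative TWIST2 had 3 and 2 reads in GIRK1, 1 and 8 reads in eGFP and 4 reads in wt replicate 2, and did not pass the filter on low counts. No TWIST2 value exceeded 0.782 RPM, and its groups overlapped.

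Of the splicing regulators, ESRP2 varied less than ESRP1. ESRP1, which keeps epithelial exons in FGFR2 and CD44, had 717 and 562 reads in GIRK1 (64.6 and 54.3 RPM), 296 and 836 reads in eGFP (57.7 and 81.7 RPM) and 1079 reads in wt replicate 2 (67.3 RPM). The groups overlapped, and the log2 difference from eGFP was -0.26 (95% interval -0.81 to 0.28, edgeR adjusted p = 0.557). From the 3 controls ESRP1 differed by -0.23 (95% interval -0.68 to 0.21, edgeR adjusted p = 0.542). ESRP2, its paralog with overlapping targets, had 373 and 322 reads in GIRK1 (33.6 and 31.1 RPM), 172 and 320 reads in eGFP (33.5 and 31.3 RPM) and 491 reads in wt replicate 2 (30.6 RPM). Its highest and lowest values among these 5 libraries differed by 1.10-fold, against 1.50-fold for ESRP1. The log2 difference from eGFP was -0.04 (95% interval -0.57 to 0.49, edgeR adjusted p = 0.931). Changes of ESRP2 within this interval could not have been told from none. An ESRP level says nothing of the isoforms themselves, since each gene was read by 1 amplicon.

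GRHL2, the grainyhead factor that maintains junction genes in epithelia, had 0 reads in wt replicate 2 and in all 4 eGFP and GIRK1 libraries. These 5 libraries held 52855341 reads. The upper ends of the 95% Poisson intervals for 0 reads ran from 0.230 RPM (wt replicate 2) to 0.720 RPM (eGFP replicate 1). In wt replicate 1 the same amplicon gave 260 reads (104 RPM, 95% interval 91.5 to 117), so it was readable in that library. The markers of wt replicate 1 do not bear out its label, and whether the amplicon reads GRHL2 of MCF10A cells was not tested. No comparison between GIRK1 and the controls was possible for GRHL2.

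VIM, the mesenchymal output, was lower in both GIRK1 libraries than in any MCF10A-like control. It had 11025 and 7942 reads in GIRK1 (993 and 768 RPM), 9478 and 13982 reads in eGFP (1849 and 1366 RPM) and 21802 reads in wt replicate 2 (1359 RPM). The log2 difference from eGFP was -0.92 (standard error 0.27, 95% interval -1.56 to -0.28), with an adjusted p of 0.148 in edgeR's quasi-likelihood test. The VIM difference from the 3 controls was -0.83 (95% interval -1.40 to -0.25, edgeR adjusted p = 0.153). DESeq2 put VIM past the threshold in both comparisons, with adjusted p-values of 0.0371 and 0.0358. Leaving out 1 library changed the edgeR call as well: against eGFP, VIM passed without eGFP replicate 2 (-1.18, adjusted p = 0.00244), where the lone eGFP library is assumed to vary like the GIRK1 pair, and not without any of the other 3 (adjusted p from 0.104 to 0.686). Against the 3 controls it passed without eGFP replicate 1 (-0.62, edgeR adjusted p = 0.0455) and not without any of the other 4 (adjusted p from 0.148 to 0.644).

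**Figure D1:**
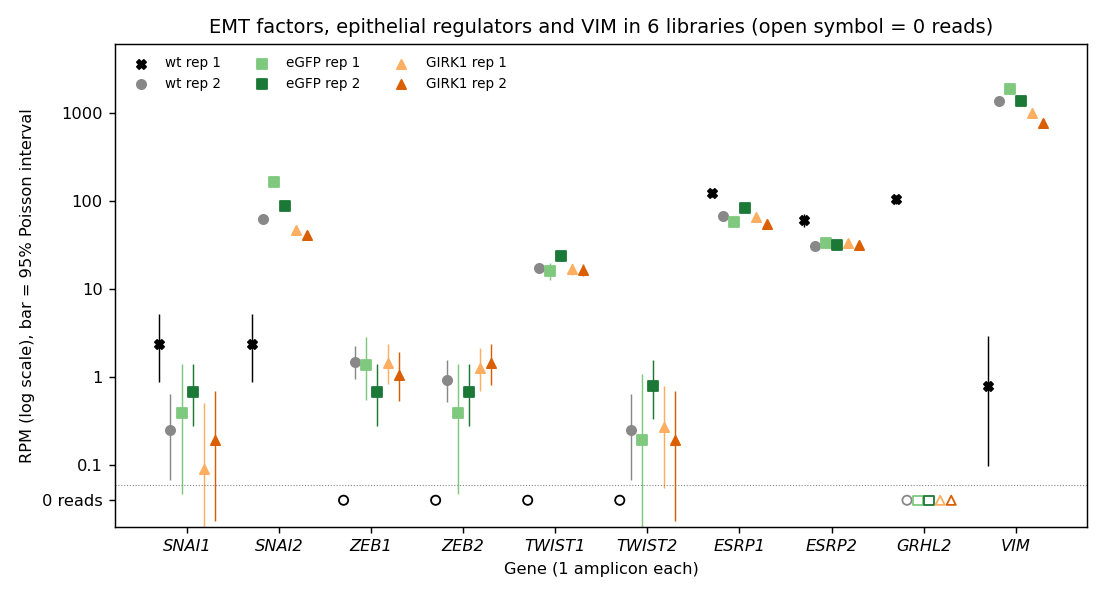
RPM of the 10 genes in each library on a log axis, with 95% exact Poisson intervals as bars and open symbols for libraries with 0 reads. SNAI2 and VIM were lowest among the MCF10A-like libraries in both GIRK1 libraries (triangles), ESRP2 stayed between 30.6 and 33.6 RPM in these 5 libraries, and wt replicate 1 (crosses) stood apart, with 104 RPM of GRHL2 and 0.798 RPM of VIM.

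**Figure D2:**
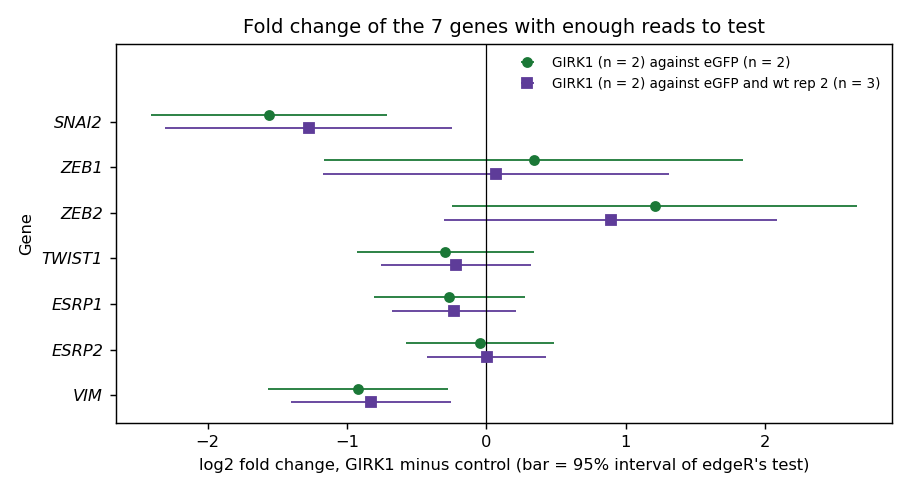
Log2 fold change of GIRK1 minus control with 95% intervals from edgeR's quasi-likelihood test, for the 7 genes that passed the filter on low counts. Intervals of SNAI2 (-2.41 to -0.71 against eGFP) and VIM (-1.56 to -0.28) exclude 0 before adjustment, and those of ZEB1, ZEB2, TWIST1, ESRP1 and ESRP2 span it.

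In count, 7 of the 10 members passed the filter on low counts and 0 of them passed edgeR's adjusted threshold against eGFP, where 1.52% of the 11279 genes tested did (88 higher and 84 lower). By the unadjusted p, 2 members were below 0.05, SNAI2 and VIM, both lower, as were 10.8% of all genes in that direction. DESeq2 called 2 members lower, again SNAI2 and VIM (4.02% of genes). Against the 3 controls edgeR called 0 of 7 members (1.21% of 11389 genes), 2 had an unadjusted p below 0.05, both lower (10.2% of genes), and DESeq2 called 1 lower, VIM (4.27% of genes). The RPM values of 3 members did not overlap between GIRK1 and eGFP, with SNAI2 and VIM lower and ZEB2 higher, and this was the case for 25.2% of all genes tested in the lower and 29.1% in the higher direction. SNAI2, VIM and ZEB2 also did not overlap between GIRK1 and the 3 controls (19.6% and 21.6% of all genes). The study's own criterion, a 2-fold difference with a coefficient of variation below 0.7 in RPM, held for the same 3 members in both comparisons, with SNAI1 and SNAI2 lower and ZEB2 higher. Of 20802 genes, 3.28% met it in the lower and 3.01% in the higher direction against eGFP, and 2.53% and 2.18% against the 3 controls. SNAI1 met it on 1 and 2 reads in GIRK1. The median log2 difference was -0.26 over the 7 members tested and 0.01 over all genes.

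Other genes of the programme were described from lists. Of 23 mesenchymal genes other than VIM, 17 were tested against eGFP. SPARC, a secreted collagen-binding protein, was the single one called, at -6.06 on the log2 scale (edgeR adjusted p = 0.0117). It had 21 and 5 reads (1.89 and 0.483 RPM) in GIRK1, 104 and 52.2 RPM in eGFP and 31.7 RPM in wt replicate 2, so it passed the filter through the controls and dropped out where at least 10 reads were asked of every library. Of all 11279 genes tested, 5518 had a negative difference, and 10.8% were lower with an unadjusted p below 0.05. Of the 17 mesenchymal differences, 16 were negative, 9 with an unadjusted p below 0.05, and their median was -1.45, beside 0.01 over all genes. DESeq2 called 8 of them lower, beside 4.02% of all genes tested. Their median ran from -1.82 to -1.12 over the alternatives of normalization, filter, test and library left out. Against the 3 controls, edgeR called SPARC and LOX, the lysyl oxidase that crosslinks collagen, with log2 differences of -5.73 (adjusted p = 0.0217) and -1.64 (adjusted p = 0.0454). The median was then -1.15 and ran from -1.45 to -0.51 over the alternatives. Both calls were lost when eGFP replicate 2 (adjusted p = 0.0963 and 0.156), GIRK1 replicate 1 (0.140 and 0.248) or GIRK1 replicate 2 (0.268 and 0.481) was left out of edgeR's fit, and that of LOX also without wt replicate 2 (0.0597). Against eGFP the call of SPARC held without any 1 of the 4 libraries, with values from -7.33 (without GIRK1 replicate 1) to -5.41 (without eGFP replicate 1).

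Among 20 junction and polarity genes, 19 were tested and 1 was called. RAB25, a small GTPase of epithelial recycling endosomes, had 55.6 and 40.8 RPM in GIRK1 and 0 reads in both eGFP libraries, at least 110-fold higher in GIRK1 when eGFP is set at 3 reads per library (edgeR adjusted p = 0.00318). With 0 eGFP reads, RAB25 passed the filter through its GIRK1 level alone, and it dropped out of the test where at least 10 reads were asked of every library. It had 3.12 RPM in wt replicate 2, and it was not called against the 3 controls by edgeR (adjusted p = 0.0645) or DESeq2 (0.298). CDH1, E-cadherin and the classical target of SNAI and ZEB repression, differed from eGFP by 0.05 on the log2 scale (standard error 0.19, edgeR adjusted p = 0.896). The list's median was 0.25, and 13 of 19 values were positive, where 5761 of all 11279 genes were. By edgeR's unadjusted p, 5 of the 19 were below 0.05, all higher, as were 950 of all 11279 genes in that direction. DESeq2 called 2 of the 19 higher, RAB25 and DSP, beside 694 of all 11279 genes in either direction. DSP was at 1.38 on the log2 scale (edgeR adjusted p = 0.0926, DESeq2 adjusted p = 0.00161).

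Of 21 other EMT-associated factors, 14 were tested and 1 was called, the helix-loop-helix inhibitor ID1, at -1.47 on the log2 scale (edgeR adjusted p = 0.0455). ID1 had 50.8 and 55.7 RPM in GIRK1, 161 and 126 RPM in eGFP and 73.1 RPM in wt replicate 2. ID1 was called against the 3 controls by DESeq2 (adjusted p = 0.0250) and not by edgeR (adjusted p = 0.151). Its call was lost without GIRK1 replicate 1 (edgeR adjusted p = 0.251) and without GIRK1 replicate 2 (0.220). Against eGFP, DESeq2 called 3 of the 14 factors lower, namely ID1, FOSL1 and HMGA2, beside 4.02% of all genes tested. FOSL1 was at -1.33 (edgeR log2 difference, DESeq2 adjusted p = 0.0221) and HMGA2 at -1.21 (DESeq2 adjusted p = 0.0460). In edgeR's test the other 3 lists held no called gene. DESeq2 called 1 of the 9 tested epithelial factors higher, TFAP2A (log2 difference 1.14, DESeq2 adjusted p = 0.0221). Over all 11279 genes, DESeq2 called 694 in either direction. Among 9 tested epithelial factors besides GRHL2 the median was 0.37, with KLF5 at 0.08 (edgeR adjusted p = 0.922). With the same assumption for the lone library, KLF5 took either sign with 1 eGFP library left out, and without eGFP replicate 2 it passed the test at 0.71 (edgeR adjusted p = 0.0207). Among 10 other splicing regulators it was 0.01, with SRSF1 at 0.69 and PTBP1 at -0.01 (edgeR adjusted p = 0.211 and 0.990), and SRSF1 passed without eGFP replicate 2, again against a lone library (0.96, edgeR adjusted p = 0.00662). Among 9 genes with ESRP-regulated exons it was 0.13, with ENAH at 0.20 and NUMB at -0.07 (edgeR adjusted p = 0.748 and 0.867). In the same list FGFR2 was at 0.94 and CD44 at -1.61 (edgeR adjusted p = 0.297 and 0.209). The values of this list concern the total of each gene and not its exons.

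**Figure D3:**
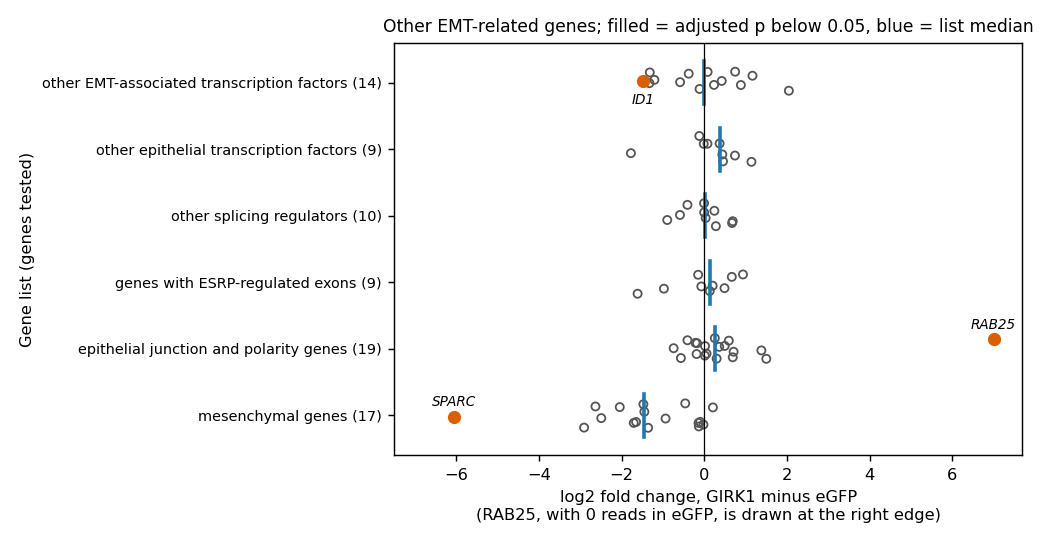
Log2 fold change of GIRK1 minus eGFP for the tested genes of 6 lists, with filled points for genes past edgeR's adjusted threshold and blue bars for list medians. Mesenchymal genes sit to the left of 0 in 16 of 17 cases, with a median of -1.45, while the other medians lie between -0.02 and 0.37.

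The library labelled wt replicate 1 gave another picture of the same 10 genes. VIM had 2 reads there (0.798 RPM, 95% interval 0.0966 to 2.88) against 21802 in wt replicate 2, a ratio of 1703 with a 95% counting interval from 471 to 14064. SNAI2 had 6 reads (2.39 RPM), 25.8-fold lower in RPM than wt replicate 2 (interval 11.8 to 70.5). TWIST1 had 0 reads and was at least 14.5-fold lower, with wt replicate 1 set at 3 reads. ZEB1 was also at 0, but its 95% interval (0 to 1.47 RPM) overlapped that of wt replicate 2 (0.959 to 2.23 RPM). No ZEB1 difference was therefore detectable. VIM, SNAI2, TWIST1 and ZEB1 were thus at or near the floor in wt replicate 1. ZEB2 and TWIST2 were at 0 as well, but with the limit of 1.20 RPM in this shallow library no difference was detectable.

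In the other direction, GRHL2 was at least 555-fold higher in wt replicate 1 than in wt replicate 2. ESRP1 had 308 reads (123 RPM, 1.83-fold, interval 1.60 to 2.08) and ESRP2 150 reads (59.9 RPM, 1.96-fold, interval 1.62 to 2.35), both above every other library. SNAI1 was also higher, with 6 reads or 2.39 RPM against 0.249 RPM, a ratio of 9.60 with an interval from 2.28 to 46.3. The SNAI1 value therefore did not go with those of SNAI2, TWIST1 and VIM. These differences went with the basal and luminal marker sums of wt replicate 1 given above, whose part in them was not tested. All these values compare 2 libraries, with no replicate of wt replicate 1 and no test. Scaling by TMM in place of the total moved the median of all genes from -0.02 to -0.23 on the log2 scale, and the ratios of ESRP1 and ESRP2 to 1.58 and 1.69.

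Of the 5 members averaging at least 50 reads, 0 were at least 2-fold higher and 3 at least 2-fold lower in wt replicate 1 (SNAI2, TWIST1 and VIM), where 18.3% and 22.6% of 9212 genes were. GRHL2, with a mean of 43.3 reads, fell short of that limit and is the single member added as higher where the limit is set at 10 reads. Among 14 mesenchymal genes above the limit of 50 reads, 13 were lower and 1, COL1A1, was higher. The mean runs over all 6 libraries and wt replicate 1 is the shallowest, so the limit favours genes read in the other 5. COL5A1 fell below it, with 42 reads (16.8 RPM) in wt replicate 1 and 0 in wt replicate 2, at least 89.6-fold higher. COL3A1 (4 against 0 reads) and WNT5A, 4.30-fold lower, also fell below it. With the limit at 10 reads, 14 of 16 were lower, and COL5A1 was still left out. Among 18 junction and polarity genes above 50 reads, 9 were higher, CLDN4 with 208 RPM against 1.25 RPM among them, and 2 were lower, DSP and PKP3. Other epithelial factors were divided, with 4 higher (GRHL3, ELF3, KLF4 and TFAP2C) and 3 lower of 8. Of 9 other EMT-associated factors, 7 were lower and ID1 was higher, 2-fold or more by RPM but not by TMM-scaled counts. GRHL2 was not alone in its pattern, since 40 of the 4185 genes with at least 100 reads in wt replicate 1 had 0 reads in the other 5 libraries. Among 5897 genes with at least 100 reads in each of those 5, 110 had 0 reads in wt replicate 1.

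The genes whose levels followed the members most closely over the 6 libraries were sought among 8258 genes averaging 10 RPM or more, by the root mean square distance between centred log2(RPM + 1) profiles. For SNAI2 they were FSCN1 (an actin-bundling protein, distance 0.0837), DUSP6 (an ERK phosphatase, 0.175) and EMP3 (0.203). FSCN1 was read at 12.4 RPM in wt replicate 1, 231 in wt replicate 2, 586 and 292 in eGFP and 173 and 140 in GIRK1, the same order of libraries as SNAI2. For VIM they were LDHB (0.205), the hemidesmosomal collagen COL17A1 (0.358) and the basal keratin KRT14 (0.358), each with 0 reads in wt replicate 1. COL17A1 overlapped between eGFP (804 and 541 RPM) and GIRK1 (669 and 479 RPM), while VIM, LDHB and KRT14 did not. The distances include wt replicate 1, so closeness over 6 libraries need not hold between GIRK1 and eGFP. For ESRP1 they were FIBP, GMEB2 and CCDC64 (0.0737 to 0.0879), and for ZEB1 MYO18A, SEC22C and RAP2A (0.0839 to 0.0999). ZEB1 itself, at 0 to 1.50 RPM, lay far below the 10 RPM asked of these genes. At that level the added 1 flattens its profile and counting error is large, so the ZEB1 distances show little. With 6 libraries these distances are descriptions.

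By the GENCODE annotation of GRCh38, the members lie on chromosomes 20 (SNAI1), 8 (SNAI2, ESRP1 and GRHL2), 10 (ZEB1 and VIM), 2 (ZEB2 and TWIST2), 7 (TWIST1) and 16 (ESRP2). VIM spans 17228259 to 17237593 on the plus strand of chromosome 10, where VIM-AS1 overlaps it on the other strand. Genes on the other strand also overlap ZEB1 (ZEB1-AS1 among them), ZEB2 (ZEB2-AS1 among them), TWIST1 (AC003986.2), GRHL2 (3 genes) and ESRP2 (NFATC3). SNAI1 and ZEB2 have annotated pseudogenes, SNAI1P1 and ZEB2P1. How reads from such partners were assigned is not stated, so the values of these genes are less certain.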

How the data were processed

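Total RNA of 6 libraries labelled MCF10A was read with the Ion AmpliSeq Transcriptome kit. The authors mapped reads to an amplicon reference of transcripts with the Ion Torrent suite, without a genome build, and deposited unnormalized read counts per amplicon for 20812 amplicons. The authors also deposited RPM, in which counts are divided by the total of the library, and reads covering the amplicon end to end, 92.5% to 94.0% of all reads. The 10 spike-in amplicons, all at 0 reads, were left out.

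After TMM scaling and filterByExpr, the quasi-likelihood functions of edgeR 4.0.16 (glmQLFit and glmQLFTest, in R 4.3.3 with limma 3.58.1) were applied to the counts with Benjamini-Hochberg adjustment at 0.05, and the procedure was checked on simulated counts. Standard errors came from the F value. DESeq2 1.42.0, other scalings and filters, covering reads, a replicate block, all 6 libraries, a threshold of 0.01, the study's fold rule and leaving out each library were the alternatives. For the 2 wt libraries, ratios of RPM were given for all members, and listed genes were counted where they averaged at least 50 reads, with Poisson or exact conditional intervals at 95% and a limit of 3 reads.

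The members, lists and tests were chosen with earlier results of these data known. All members were named, and from each list up to 4 genes past the threshold against eGFP or, where none passed, the 2 with the highest mean RPM, with the 3 nearest profiles for SNAI2, ZEB1, ESRP1 and VIM, and KCNJ3. One gene that this rule names is not reported here. CLDN4, CDH1, LOX, COL5A1, WNT5A, TFAP2A, FOSL1, HMGA2, DSP, DCN and the other single cell type markers were named after their values were seen. So were the values of CD44 and FGFR2, and the genes spelled out in small counts. Positions came from GENCODE by symbol, and promoter sequence from RefSeq (GRCh38.p14).

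The deposited names place both GIRK1 libraries under a tag that the other 4 do not carry. What it marks is not known, and it cannot be told apart from the condition.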

Additional observations from a re-analysis of the deposited data

How the results depend on the processing

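Against eGFP, 172 genes passed the threshold, and the count was 881 with no filter, 111 with at least 10 reads in every library, 694 by DESeq2, 38 at an adjusted p below 0.01, 1309 by the study's fold rule, and 0 when all 6 libraries shared 1 estimate of spread (599 genes with an unadjusted p below 0.05). Leaving out 1 library gave 89 to 2933 genes, the most without eGFP replicate 2 and 718 without eGFP replicate 1. Against the 3 controls the count (1.21% of genes) became 374 with no filter, 806 by DESeq2, 44 at 0.01, 980 by the fold rule, 4 with all 6 libraries in the fit and 7 with wt replicate 1 among the controls, and 19 to 984 on leaving out 1 library. Members called, 0 in both comparisons, numbered 2 with no filter, 2 by DESeq2, 3 by the fold rule and 0 to 2 on leaving out 1 library against eGFP, and 1 by DESeq2, 3 by the fold rule and 0 to 2 on leaving out 1 library against the 3 controls. With the replicate number as a block, 590 and 558 genes and 1 member in each comparison were called (SNAI2 at an adjusted p of 0.0166 against eGFP, VIM at 0.0398 against the 3 controls). The numbers were not taken to pair the libraries, since the correlations of same-numbered deviations were 0.194 (eGFP and GIRK1), 0.142 (eGFP and wt) and 0.0417 (GIRK1 and wt).

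SNAI2, VIM, SPARC, ID1 and LOX were lower in GIRK1 and ZEB2 and RAB25 higher under each alternative run on them, while all calls of listed genes were lost with all 6 libraries in the fit. The sign turned against eGFP for ESRP2 without eGFP replicate 1 (-0.16 to 0.061 on leaving out 1 library) and for ZEB1 without eGFP replicate 2 (-0.22 to 0.87). Against the 3 controls, ESRP2, at 0.0020, became -0.0027 with DESeq2 size factors, -0.021 with covering reads, -0.22 with all 6 libraries, -0.025 with the replicate block, -0.23 with wt replicate 1 among the controls and below 0 without eGFP replicate 2, GIRK1 replicate 1 or wt replicate 2 (-0.043 to 0.080 on leaving out 1 library). ZEB1 became -0.14 with covering reads, -0.045 with the block and below 0 without eGFP replicate 2 or GIRK1 replicate 1 (-0.23 to 0.34 on leaving out 1 library), and TWIST1 0.28 with all 6 libraries and 0.18 with wt replicate 1 among the controls. Among listed genes against eGFP, PTBP1 turned to 0.028 by total reads, 0.022 by upper quartile factors and 0.010 with at least 10 reads in every library, and it ranged from -0.11 to 0.10, KLF5 from -0.37 to 0.71, ENAH from -0.13 to 0.62 and NUMB from -0.18 to 0.037 on leaving out 1 library. The cause was not tested. Depth limited SNAI1, ZEB1, ZEB2 and TWIST2 most, and every member at few or 0 reads in wt replicate 1. In wt replicate 1 against wt replicate 2, the shares of all genes past 2-fold stayed within 1.5 times of those given. Among listed EMT-associated factors, the 1 higher became 0 by TMM and 5 with a mean of at least 10 reads, where members higher went from 0 to 1.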
